A study of Mus musculus with 12 samples.

Results

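The genes described here belong to the signalling route of leukaemia inhibitory factor (LIF): the shared receptor chain Il6st, the transcription factor Stat3, the feedback inhibitor Socs3 and the kinase genes Pim1 and Pim3. They were chosen by gene symbol, as the probes that carry Pim1, Pim3, Il6st, Lifr, Stat3 or Socs3 as their only symbol in the platform annotation. Of these 6 genes 5 have a named probe, out of 13840 genes named on the array, and Lifr, the LIF-specific receptor chain, is not named in the annotation used here. Jak1 was left out because its probe parts the groups along the file layouts described below. The 5 genes have 6 probes, since Il6st has 2, and all 6 probes passed the detection filter.

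Expression was measured in mouse cells on 12 one-colour whole-genome arrays, 3 for each of 4 groups. ES cells are cultured pluripotent cells of the early embryo, and their label gives as the source of embryos matings of males carrying an Oct4-△PE-EGFP transgene with females of 129/sv or ROSA 129/Sv. The same label places these embryos after implantation, the stage from which the epiblast was dissected, so the origin of the ES cells is not settled by the labels. The reporter is driven by an Oct4 regulatory region without its proximal enhancer. The cEpi cells were cultured epiblast, the pluripotent layer of post-implantation embryos, whose medium and feeder cells the labels do not describe. The rEpiES cells were ES-like cells at passage 4 and passage 24, grown out of such epiblast in serum with LIF on mitomycin-treated embryonic fibroblasts and picked as colonies with reporter fluorescence. LIF was therefore part of the stated medium of both rEpiES groups, and the medium of the ES group is not given in the labels. Whether replicate arrays stem from separate cultures is not stated in the labels, so the p-values measure only array-to-array spread, which may be technical.

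LIF binds LIFR, which pairs with gp130, the protein of Il6st and the common signalling chain of the interleukin-6 family. JAK kinases attached to these chains then phosphorylate STAT3, which enters the nucleus and switches on target genes, among them Socs3, whose product blocks the receptor-bound JAKs, and the Pim serine/threonine kinases, which are active without phosphorylation by another kinase. In mouse ES cells this route sustains self-renewal, whereas epiblast stem cells are maintained with Activin and FGF and do not depend on LIF.

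The start regions of the genes that moved furthest and of the inhibitor Socs3 are shown because STAT3 binds DNA directly. Each sequence holds the 250 bases before the annotated start in RefSeq (GRCm38.p6), 5′ to 3′ on the gene's strand, and capitals mark a match to the STAT motif TTCNNNGAA, which reads the same on both strands. Pim1 lies at chr17:29490535-29490784 on the plus strand, Pim3 at chr15:88861944-88862193 on the plus strand and Socs3 at chr11:117969367-117969616 on the minus strand.
Pim1: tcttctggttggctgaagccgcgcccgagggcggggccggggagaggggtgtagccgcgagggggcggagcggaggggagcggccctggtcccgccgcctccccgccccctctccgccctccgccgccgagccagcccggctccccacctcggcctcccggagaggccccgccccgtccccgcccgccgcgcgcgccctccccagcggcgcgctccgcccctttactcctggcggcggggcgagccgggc
Pim3: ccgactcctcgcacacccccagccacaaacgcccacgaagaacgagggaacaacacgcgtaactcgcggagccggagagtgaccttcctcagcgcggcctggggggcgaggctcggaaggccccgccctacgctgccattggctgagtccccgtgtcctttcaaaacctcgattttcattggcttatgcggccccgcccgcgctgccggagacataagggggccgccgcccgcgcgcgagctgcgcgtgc
Socs3: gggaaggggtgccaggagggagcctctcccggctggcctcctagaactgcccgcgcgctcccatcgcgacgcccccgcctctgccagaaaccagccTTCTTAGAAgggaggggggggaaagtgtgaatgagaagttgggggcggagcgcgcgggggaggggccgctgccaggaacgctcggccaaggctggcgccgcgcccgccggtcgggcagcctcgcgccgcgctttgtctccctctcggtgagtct
Socs3 held 1 match, TTCTTAGAA, whose first base lies 154 bases before the start. The windows of Pim1, Pim3, Il6st and Stat3 held none, nor did the window at a further annotated start of Pim1 (chr17:29492835-29493084). Of all 32851 such windows 7.02% held TTCNNNGAA, and 0.913% held TTCCNGGAA, a narrower form contained in it that was absent from the windows of all 5 genes. G and C made up 82.4% of the Pim1 window, 68% of the Pim3 window and 71.6% of the Socs3 window.

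Levels are the authors' quantile-normalised log2 signals, in which a step of 1 is a 2-fold change, and levels of different probes are not compared with each other. A probe counted as detected on an array at a signal-to-noise score of 3 or more, and the 15235 probes that some group showed as detected on its full set of 3 arrays were tested. Between 12061 (ES) and 16537 (cEpi) probes were detected on an array. The ES arrays differed most among themselves, with a median SD of 0.24 against 0.09 to 0.11 in the other groups, and limma pooled these unequal spreads. The files of cEpi and rEpiES passage 4 share one layout and those of ES and rEpiES passage 24 another, so that only rEpiES passage 4 against cEpi and rEpiES passage 24 against ES lie within a layout. For the other 4 comparisons, group cannot be told apart from layout.

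The labelled cell types were set against marker genes. By the brighter probe of each gene, 7 of 7 measured naive pluripotency markers were lower in cEpi than in ES and 7 were higher in each rEpiES group than in cEpi, and Tcl1 was detected on no cEpi array. Under the other scalings described below, 5 of the 7 were lower in cEpi than in ES and the brighter Klf2 probe turned from -0.41 to 0.41 and 0.54. The dimmer Klf2 probe, detected on 1 of 3 ES arrays and on 3 of 3 cEpi arrays, was higher in cEpi than in ES (2.43). Core pluripotency markers were lower in cEpi than in ES for 5 of 5 genes (Pou5f1 -1.01, Sox2 -1.65), for 4 under median scaling and for 3 without normalisation. Of 5 markers of post-implantation epiblast 3 were higher in cEpi than in ES, among them Fgf5 (1.55), and 2 were lower, Dnmt3b (-1.40) and Pou3f1 (-1.72). The summed signal of these 5 was highest in ES, at 751898 to 903564, against 670279 to 693574 in cEpi. It was 253185 to 259503 in rEpiES passage 4 and 385633 to 412725 in rEpiES passage 24. By summed signal, markers of fibroblasts and of endoderm were highest in cEpi. The endoderm marker Afp went otherwise, being detected on 1 ES array and on no array of the other groups. The summed signal of 17 fibroblast markers was 1723315 to 1765719 in cEpi, against 277232 to 421921 in ES, 364335 to 368466 in rEpiES passage 4 and 216254 to 223809 in rEpiES passage 24. Of the 16 tested, 15 were higher in cEpi than in ES and 0 lower. At passage 4 against ES 8 were higher and 2 lower, beside 29.3% and 26% of all probes. At passage 24 against passage 4, 2 were higher and 10 lower, beside 17.2% and 18.9%. Fibroblast markers were detected on all 3 arrays for 14 of 17 genes in ES, 16 in cEpi, 16 at passage 4 and 15 at passage 24. Pdgfra was detected on no array of ES or of either rEpiES group, and Thy1 on no ES array. The summed signal of 8 endoderm markers was 273438 to 294546 in cEpi, 27684 to 32818 in ES, 12349 to 14384 in rEpiES passage 4 and 3889 to 4415 in rEpiES passage 24, and 4 of 6 tested were lower at passage 24 than at passage 4. In RNA of a whole culture, fewer cells that express a gene and less of its RNA per cell cannot be told apart, and the part of these other cells in the differences between groups described below was not tested.

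Pim1 was high in ES and in both rEpiES groups and low in cEpi. Pim1 encodes a serine/threonine kinase that favours survival and cell cycle entry. Its log2 level was 14.49, 14.52 and 14.38 on the ES arrays and 11.33, 11.56 and 11.51 on the cEpi arrays. It was 14.54, 14.41 and 14.35 at rEpiES passage 4 and 14.15, 14.07 and 14.36 at passage 24. All 3 cEpi arrays lay below the 9 others, whose ranges overlapped between rEpiES passage 4 and each of the others. Pim1 fell by 3.00 ± 0.10 (SE) on the log2 scale from ES to cEpi, 7.99-fold (limma adjusted p = 6.83e-09). It was 7.81-fold higher at rEpiES passage 4 than in cEpi (2.97 ± 0.10, adjusted p = 9.66e-09), and 1.93% of all tested probes differed by at least as much there. At passage 24 the difference from cEpi was 6.63-fold (2.73, adjusted p = 7.17e-09). In order of level came ES (14.46 ± 0.07, SD, n = 3), rEpiES passage 4 (14.43 ± 0.10), rEpiES passage 24 (14.20 ± 0.15) and cEpi (11.47 ± 0.12), and the test separated neither ES from passage 4 nor passage 4 from passage 24. The difference of rEpiES passage 4 from ES was -0.03 (95% interval -0.25 to 0.19, adjusted p = 0.804), and that of passage 24 from passage 4 was -0.24 (-0.45 to -0.02, adjusted p = 0.0867). Passage 24 was lower than ES by the test (-0.27, adjusted p = 0.0365), a call that was lost without ES replicate 1 or 2, without rEpiES passage 4 replicate 2, or without rEpiES passage 24 replicate 1 or 2, with values from -0.35 to -0.21 over all leave-outs, and whose sign turned to 0.14 under median scaling and 0.08 without normalisation.

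Pim3, a kinase gene of the same family, was also lowest in cEpi, but in both rEpiES groups it stood above ES. Its log2 level was 14.07, 13.86 and 14.54 in ES and 12.78, 12.88 and 12.63 in cEpi. It was 15.40, 15.32 and 15.27 at rEpiES passage 4 and 15.29, 15.23 and 15.43 at passage 24. The cEpi, ES and rEpiES arrays formed 3 bands without overlap, and the arrays of both passages lay within one band. Pim3 was lower in cEpi than in ES by 2.62-fold (-1.39 ± 0.15, adjusted p = 2.39e-05), a call that was lost without normalisation (-0.55, adjusted p = 0.0918). From cEpi it was 5.92-fold higher at passage 4 (2.57, adjusted p = 5.12e-07) and 5.87-fold higher at passage 24 (2.55, adjusted p = 2.65e-07). Above ES it stood 2.26-fold at passage 4 (1.18, adjusted p = 0.000126) and 2.24-fold at passage 24 (1.16, adjusted p = 0.000106, within a layout). The difference between the passages was -0.01 (95% interval -0.35 to 0.33, adjusted p = 0.958).

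Pim2, the third Pim kinase gene, was taken from the pathway lists and ran the other way between ES and cEpi. Its log2 level was 12.28, 12.39 and 12.61 in ES, 14.77, 14.79 and 14.52 in cEpi, 14.31, 14.38 and 14.23 at rEpiES passage 4 and 14.25, 14.07 and 14.19 at passage 24. The ES arrays were the lowest and the cEpi arrays the highest, with both rEpiES groups nearer to cEpi. Pim2 was 4.81-fold higher in cEpi than in ES (2.27 ± 0.11, adjusted p = 6.39e-08). It was lower than cEpi by 0.39 at passage 4 (-0.39, adjusted p = 0.0105, but 0.055 without a detection filter) and by 0.52 at passage 24 (-0.52, adjusted p = 0.00149), and remained 3.68-fold and 3.35-fold above ES (adjusted p = 6.63e-07 and 5.98e-07).

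**Figure D1:**
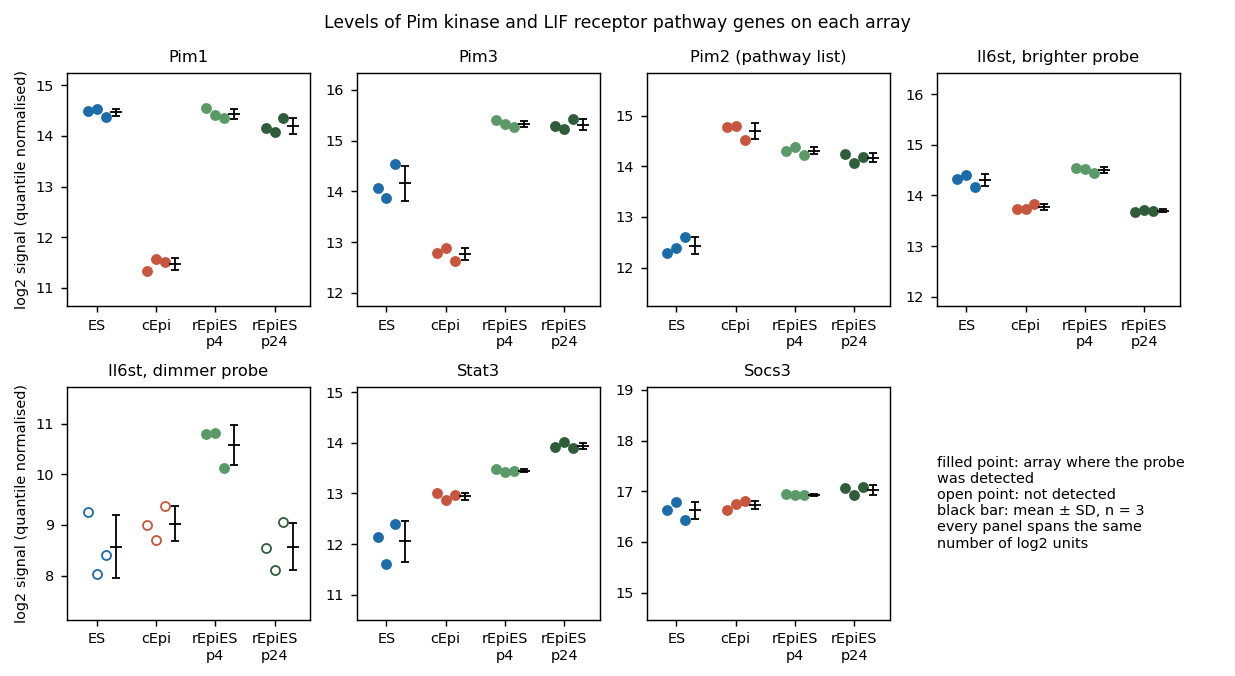
Log2 signal (quantile normalised, vertical axis) of each probe on each of the 3 arrays in each of the 4 groups, with mean ± SD as black bars, filled points for detected and open points for undetected probes, every panel spanning the same number of log2 units. Pim1 drops to 11.47 in cEpi alone, Pim3 is highest in both rEpiES groups, and Stat3 is lowest in ES at 12.06.

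Il6st, the receptor chain, was highest at rEpiES passage 4 and lowest at passage 24. Its brighter probe gave log2 levels of 14.33, 14.40 and 14.17 in ES and 13.74, 13.74 and 13.83 in cEpi. It gave 14.55, 14.53 and 14.44 at passage 4 and 13.67, 13.72 and 13.70 at passage 24. ES and passage 4 formed a high band in which all passage 4 arrays lay above the ES arrays, and cEpi and passage 24 a low one. From passage 4 to passage 24 Il6st fell by 0.81 on the log2 scale, 1.75-fold (adjusted p = 2.37e-05), with no overlap between the arrays, and the call held under median scaling (-0.73) and without normalisation (-0.72). Of the 16 fibroblast markers 10 were also lower at passage 24 than at passage 4, as were 4 of 6 endoderm markers, beside 18.9% of all probes. The part of these markers' cells in this fall was not tested. From cEpi Il6st was 1.66-fold higher at passage 4 (0.73, adjusted p = 1.53e-05), a call lost without normalisation (0.23, adjusted p = 0.201). At passage 24 the difference from cEpi was -0.07 (95% interval -0.24 to 0.09, adjusted p = 0.382). Relative to ES the brighter probe was lower in cEpi (-0.53, adjusted p = 0.000113) and at passage 24 (-0.60, adjusted p = 5.67e-05). The first of these turned sign under median scaling (0.12) and without normalisation (0.25), and the second was no longer called (-0.19 and -0.25). The excess of passage 4 over ES (0.21, adjusted p = 0.0323) was lost without ES replicate 3 (0.14), without rEpiES passage 4 replicate 1 (0.19) or without replicate 2 (0.20), and in the fit with a replicate block (adjusted p = 0.0519).

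The dimmer Il6st probe was detected on 3 of 3 arrays at passage 4 and on no other array. Its log2 level there was 10.80, 10.82 and 10.12, against 9.25, 8.04 and 8.41 in ES, 8.99, 8.70 and 9.38 in cEpi and 8.54, 8.12 and 9.05 at passage 24. Passage 4 was at least 4.04-fold above ES, at least 2.95-fold above cEpi and at least 4.03-fold above passage 24. For these bounds, each array of the undetected group entered at the probe's own signal or at the lowest detected signal of that array, whichever was higher. The dimmer probe passed the detection filter only through passage 4, so a test of it cannot separately show a peak there. Both probes had their highest mean at passage 4. The drop of the brighter probe between ES and cEpi has no counterpart in the dimmer one, which was below detection in both.

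Stat3, the transcription factor of the route, was lowest in ES and highest at rEpiES passage 24. Its log2 level was 12.15, 11.61 and 12.40 in ES and 13.00, 12.87 and 12.97 in cEpi. It was 13.49, 13.42 and 13.45 at passage 4 and 13.92, 14.01 and 13.89 at passage 24. The groups did not overlap in the order ES, cEpi, passage 4, passage 24, with means of 12.06 ± 0.40, 12.94 ± 0.07, 13.45 ± 0.04 and 13.94 ± 0.06 (SD, n = 3). Stat3 was 3.70-fold higher at passage 24 than in ES (1.89, adjusted p = 5.68e-06, within a layout) and 2.63-fold higher at passage 4 (1.40, adjusted p = 5.96e-05). It was higher in cEpi than in ES by 0.89 ± 0.16 (adjusted p = 0.00081), and at passage 24 than in cEpi by 1.00 (adjusted p = 0.00036), though the latter was no longer called without normalisation (0.52, adjusted p = 0.114). The steps from cEpi to passage 4 (0.51, adjusted p = 0.0222) and from passage 4 to passage 24 (0.49, adjusted p = 0.0401) passed the threshold less firmly. The first was lost without passage 4 replicate 1 or 3 or cEpi replicate 2 or 3, under median scaling (0.18) and, with its sign turned, without normalisation (-0.02). The second was lost without any single array of cEpi, passage 4 or passage 24, the values lying between 0.45 and 0.51, and under both scalings (0.53 and 0.54).

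Socs3, whose product shuts off the JAKs at the receptor and which is itself a STAT3 target, varied least of the members in the quantile values. Its log2 level was 16.63, 16.79 and 16.44 in ES and 16.63, 16.75 and 16.80 in cEpi. It was 16.95, 16.92 and 16.92 at passage 4 and 17.07, 16.92 and 17.09 at passage 24. The ES and cEpi arrays overlapped, and all 6 rEpiES arrays lay above them. The difference of cEpi from ES was 0.10 ± 0.09 (adjusted p = 0.357). Both rEpiES groups were higher than ES, by 0.31 at passage 4 (adjusted p = 0.0176) and by 0.40 at passage 24 (adjusted p = 0.00419, within a layout). The first was lost without passage 4 replicate 1 (0.30). From cEpi the difference was 0.30 at passage 24 (adjusted p = 0.017) and 0.21 at passage 4 (adjusted p = 0.0835). The passage 24 call was lost without cEpi replicate 1 (0.25), without passage 24 replicate 1 (0.28) or 3 (0.27) and under both scalings (0.23 and 0.04). The passage 4 value passed the threshold without ES replicate 2 or ES replicate 3. The steady Socs3 between ES and cEpi holds for the quantile values, since the difference was 0.55 under median scaling (adjusted p = 0.00171) and 0.67 without normalisation (adjusted p = 0.000737).

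**Figure D2:**
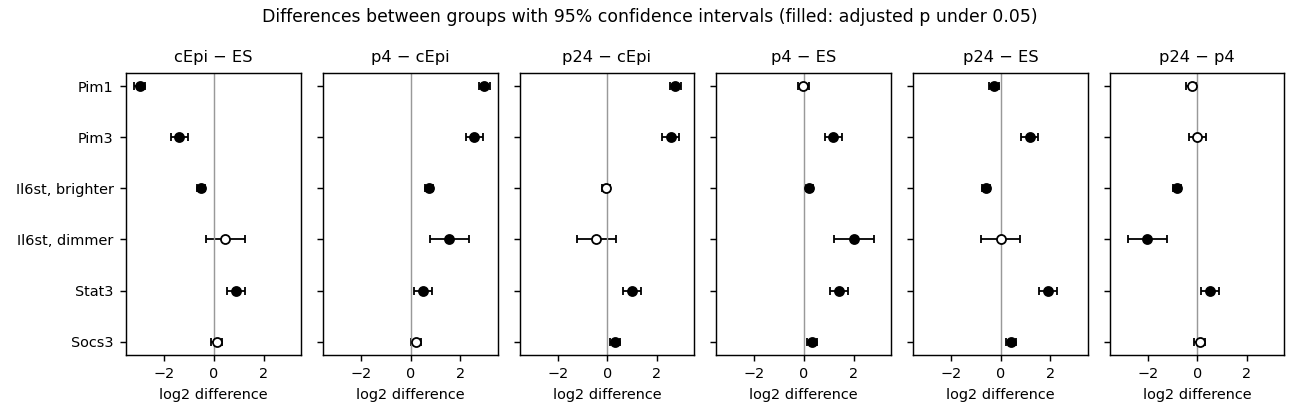
Log2 difference (horizontal axis) of each member probe in the 6 comparisons, with 95% confidence intervals as bars and filled points where the adjusted p was under 0.05. Pim1 and Pim3 show the widest differences against cEpi, -3.00 and -1.39 from ES to cEpi and 2.97 and 2.57 from cEpi to passage 4, while Socs3 stays within 0.40 of zero.

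Counted per gene by the brighter probe, 1 of the 5 members was higher in cEpi than in ES (Stat3) and 3 were lower (Pim1, Pim3 and Il6st), while 36.6% of all tested probes were called higher and 29.6% lower. At rEpiES passage 4 against cEpi 4 were higher and 0 lower, beside 28.2% and 28.1% of all probes, and at passage 24 against cEpi 4 were higher and 0 lower, beside 33.3% and 32.9%. These 4 genes were Pim1, Pim3 and Stat3 in both, with Il6st at passage 4 and Socs3 at passage 24. Against ES 4 were higher and 0 lower at passage 4, beside 29.3% and 26% of all probes. At passage 24 3 were higher and 2 lower, beside 30.6% and 29%. Between the passages Stat3 was higher and Il6st lower at passage 24, beside 17.2% and 18.9%. These comparisons share arrays, so their values are not independent of each other.

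Quantile normalisation gives every array the same distribution, and the choice of scaling moves levels of all genes against cEpi and ES. The median difference of all tested probes between cEpi and ES was 0.15 in the quantile values, 0.69 after median scaling and 0.81 without further normalisation, and the share of calls that were higher in cEpi went from 55.3% to 82.3% and 86%. That share went from 50.1% to 31.5% and 20.1% at passage 4 against cEpi, from 50.3% to 39% and 29.7% at passage 24 against cEpi, from 52.9% to 80.5% and 76.7% at passage 4 against ES and from 51.4% to 75.9% and 73.1% at passage 24 against ES. The members' differences between cEpi and ES were therefore also set against these medians. Pim1 lay 3.14 below the median probe in cEpi against ES in the quantile values (-3.14) and at -3.00 under both other scalings. Pim3 lay at -1.53, -1.37 and -1.37, and the brighter Il6st probe at -0.67, -0.57 and -0.57. The dimmer Il6st probe, below detection in both groups, went from 0.31 to -0.53 under both. Stat3 lay above it at 0.74, 1.00 and 1.00, and Socs3 near it at -0.04, -0.14 and -0.14. Signs of detected members also turned in other comparisons, and these were set against the median probe in the same order. At passage 4 against cEpi, Stat3 lay at 0.53, 0.44 and 0.44 and Socs3 at 0.23, 0.27 and 0.27. Against ES, Pim1 lay at -0.08, -0.05 and -0.05 at passage 4 and at -0.30, -0.23 and -0.23 at passage 24. Pim3 between the passages still turned (-0.03, 0.05 and 0.05).

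**Figure D3:**
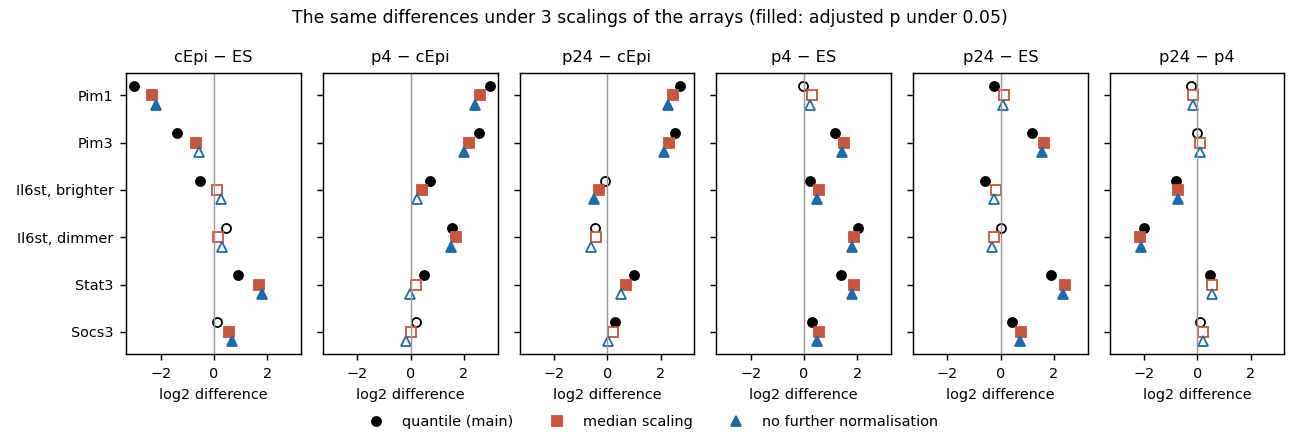
The log2 differences (horizontal axis) of the member probes in the 6 comparisons under 3 scalings of the arrays, quantile as circles, median scaling as squares and no further normalisation as triangles, filled where the adjusted p was under 0.05. Pim1 against cEpi keeps its side under all 3, from -3.00 to -2.18 for cEpi minus ES, whereas the brighter Il6st probe moves from -0.53 to 0.25 there.

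Of 14 STAT3 target genes on a list of textbook targets, all tested, 10 were lower and 3 higher in cEpi than in ES (median log2 difference -1.22, against 0.15 over all probes, of which 29.6% were lower and 36.6% higher). At passage 4 against cEpi 12 were higher and 1 lower (median 1.06, all probes -0.02), beside 28.2% and 28.1% of all probes. At passage 24 against cEpi 10 were higher and 1 lower (median 1.10, all probes 0.01), beside 33.3% and 32.9%. Under median scaling 8 were lower and 4 higher in cEpi than in ES and 10 higher and 1 lower at passage 4 than in cEpi, and without normalisation 7 and 4, and 8 and 1. Under these scalings 82.3% and 86% of the calls over all probes were higher in cEpi than in ES. At passage 4 against cEpi 31.5% and 20.1% were higher. At passage 24 against cEpi 10 targets were higher and 2 lower under median scaling, and 8 and 2 without normalisation. There, 39% and 29.7% of the calls over all probes were higher. Several of the targets encode transcription factors of the naive state, given here before the others. Tfcp2l1 was detected on no cEpi array, and it was at least 13.8-fold higher in ES, at least 9.16-fold higher at passage 4 and at least 4.64-fold higher at passage 24. Klf4 was lower in cEpi (-1.48) and higher at passage 4 (2.29) and passage 24 (1.51). Gbx2, a homeobox gene that sustains ES cells, followed the same course (-1.86, 2.49 and 2.10), as did the immediate early gene Fos (-3.19, 2.69 and 1.31). Bcl3 was higher than cEpi in both rEpiES groups (1.49 and 1.45). Its lower level in cEpi than in ES (-1.13) was not called under either other scaling (-0.35 and -0.22). The adhesion gene Icam1 ran otherwise: it was undetected in ES, at least 2.74-fold higher in cEpi, and higher again at passage 4 than in cEpi (1.26) and at passage 24 than at passage 4 (1.07). The survival gene Bcl2l1 was higher in cEpi than in ES (0.73) and lower than cEpi at passage 4 (-0.57) and passage 24 (-1.15). Mcl1, a survival gene, was higher at passage 24 than in ES (1.23) and at passage 4 (0.59). Against ES at passage 4, Junb was higher (0.82) and Ccnd1, the cyclin D1 gene, lower (-0.84). Myc was called in none of the 6 comparisons, its differences ranging from -0.21 to 0.08.

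Against ES the same targets were split. At passage 4, 6 were higher and 5 lower, and at passage 24, 4 were higher and 7 lower, with medians of 0.08 and -0.23 beside 0.05 and 0.04 over all probes. Of all probes 29.3% were higher and 26% lower at passage 4, and 30.6% and 29% at passage 24. The counts of targets became 7 and 1 at passage 4 and 6 and 3 at passage 24 under median scaling. There, 80.5% and 75.9% of the calls over all probes were higher. Between passage 4 and passage 24, 3 were higher and 8 lower (median -0.44, all probes 0.01, with 17.2% and 18.9% of all probes called), among them Fos (-1.38), Tfcp2l1 (-0.98), Zfp36 (-0.93), an mRNA decay factor, and Klf4 (-0.78). Fibroblast and endoderm markers moved in this comparison as well (10 of 16 and 4 of 6 lower), and their part was not tested. Under both other scalings 3 targets were higher and 5 lower, where 49.2% and 49% of the calls over all probes were higher.

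**Figure D4:**
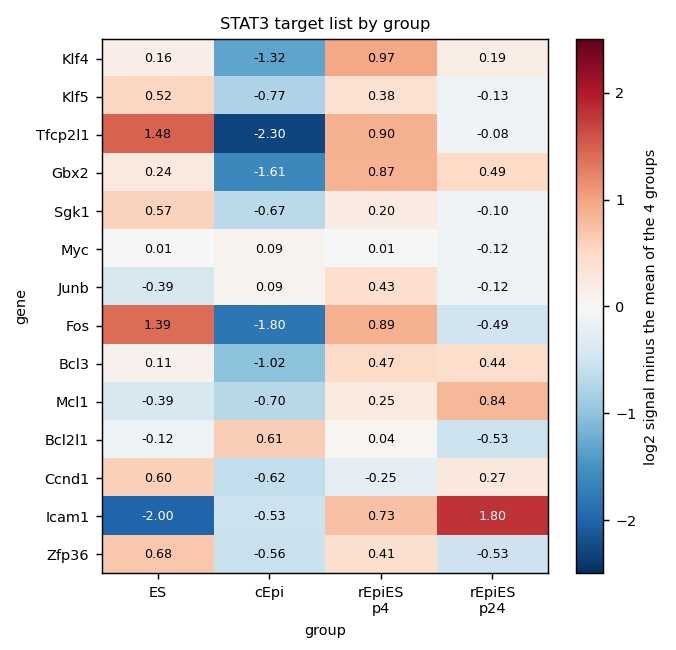
Group mean log2 signal of the 14 STAT3 target genes minus the mean of the 4 groups, printed in each cell and coloured from blue (lower) to red (higher), with genes as rows and the 4 groups as columns. Tfcp2l1, Fos, Gbx2 and Klf4 are lowest in cEpi, while Icam1 is lowest in ES and highest at passage 24, where it exceeds ES by 3.80 in fitted log2 signal, ES being undetected.

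Among ligands of the gp130 family 3 of 7 named genes were bright enough to test. Il6 was higher in cEpi than in ES (1.40) and lower than cEpi at both passages (-1.80 and -1.76). Il11 was higher in cEpi than in ES (1.39) and at least 2.41-fold higher in cEpi than at passage 24, where it was not detected. Both were detected on 3 of 3 cEpi arrays, on 2 ES arrays and on 1 array at passage 4, and Il6 on 1 at passage 24. They passed the detection filter only through cEpi, so tests of them cannot separately show an excess there. Ctf1, the cardiotrophin gene, was lower at passage 24 than in ES (-1.09), and its lower level in cEpi than in ES (-0.54) turned sign under both other scalings (0.27 and 0.40). Lif itself has a named probe that did not pass the detection filter. Of the receptors 2 of 4 named genes were tested, Il6st and Cntfr. Cntfr, the ciliary neurotrophic factor receptor, was detected only on cEpi arrays, at least 4.74-fold above ES. Cntfr likewise passed the detection filter only through cEpi, so a test of it cannot separately show an excess there.

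Of 7 tested kinase and STAT genes 3 were higher and 1 lower in cEpi than in ES, beside 36.6% and 29.6% of all probes. At passage 24 against ES 4 were higher and 0 lower, beside 30.6% and 29%. In cEpi against ES these counts were 5 and 0 under median scaling and 6 and 0 without normalisation, where 82.3% and 86% of the calls over all probes were higher. Tyk2, a JAK family kinase, was higher at passage 24 than in cEpi (1.03), in ES (0.84) and at passage 4 (0.49), and its small decrease in cEpi against ES (-0.19) turned sign under both other scalings (0.53 and 0.65). Stat5a was detected on no ES array and was at least 3.87-fold above ES in cEpi, at least 2.98-fold at passage 4 and at least 3.84-fold at passage 24. Stat6 was detected on no ES array, at least 3.41-fold above ES in cEpi, and lower at passage 4 than in cEpi (-1.67). Stat5a and Stat6, both among the genes higher in cEpi than in ES, passed the detection filter only through cEpi. Tests of these genes, and their part in the counts for cEpi, therefore cannot separately show an excess there. Stat4 was higher at passage 24 than at passage 4 (1.20). Stat5b was called in none of the comparisons, and neither was Jak2.

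Of 13 tested inhibitor genes, Socs3 included, 5 were higher and 6 lower in cEpi than in ES, beside 36.6% and 29.6% of all probes. Under either other scaling 9 were higher and 0 lower, where 82.3% and 86% of the calls over all probes were higher. Cish, a SOCS family gene detected on 2 of 3 ES arrays, was higher in cEpi than in ES (2.21) and lower at passage 24 than in cEpi (-1.90). Socs5 was higher in cEpi than in ES (1.94) and lower than cEpi at passage 4 (-0.91) and passage 24 (-1.59). Socs2 was lower than ES at passage 24 (-1.01), and its lower level in cEpi (-0.85) was not called under either other scaling (-0.33 and -0.20). Pias2, whose product belongs to a family of STAT inhibitors, was higher than cEpi at passage 4 (1.28) and passage 24 (1.39), and its difference between cEpi and ES (-0.15) turned sign under both other scalings (0.55 and 0.68). Pias3 of the same family was detected on no ES array and was at least 2.77-fold above ES at passage 4 and at least 2.98-fold at passage 24. Pias4 was higher at passage 24 than in cEpi (1.45) and at passage 4 (0.65), the latter not called under either other scaling (0.69 and 0.70). Pias1 was lower than ES at both passages (-0.24 each), and both signs turned under the other scalings, to 0.18 and 0.11 at passage 4 and 0.21 and 0.15 at passage 24. Among the phosphatase genes Ptpn2 was lower in cEpi than in ES (-0.67), with the sign turned under the other scalings (0.12 and 0.25). Ptpn1 was lower at passage 4 than in cEpi (-0.33). Ptpn6 was higher at passage 24 than at passage 4 (0.59), but not by the test under the other scalings (0.62 and 0.64). Socs1 was higher at passage 4 than in cEpi (0.91) but not by the test without normalisation (0.38).

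Of 6 tested adaptor genes 3 were higher and 3 lower in cEpi than in ES, beside 36.6% and 29.6% of all probes. These counts were 3 and 2 under median scaling and 3 and 1 without normalisation. There, 82.3% and 86% of the calls over all probes were higher. Gab1 encodes a docking protein of gp130 signalling. It was lower in cEpi than in ES (-1.95), higher than cEpi at passage 4 (3.16) and passage 24 (3.72), above ES at both passages (1.20 and 1.77) and higher at passage 24 than at passage 4 (0.57). Shc1, an adaptor gene detected on 2 of 3 ES arrays, was higher than ES in cEpi (2.47), at passage 4 (2.72) and at passage 24 (3.4). Grb2 was lower than ES at passage 4 (-0.44) and passage 24 (-0.54), neither called under the other scalings. Yes1, a Src family kinase gene, was higher than ES at passage 4 (2.19) and passage 24 (1.80). Ptpn11, whose phosphatase SHP2 links gp130 to ERK, was higher in cEpi than in ES (1.36) and lower than cEpi at both passages (-0.80 each) by its brighter probe, while the dimmer was called in none of the comparisons. Sos1 was higher at passage 4 than in cEpi (1.19) and lower at passage 24 than at passage 4 (-1.20), with a difference of -0.01 between passage 24 and cEpi.

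Of 6 tested genes whose proteins Pim kinases phosphorylate, 3 were higher and 1 lower in cEpi than in ES, beside 36.6% and 29.6% of all probes. Under either other scaling 4 were higher and 1 lower, where 82.3% and 86% of the calls over all probes were higher. Bad, a cell death gene detected on 1 of 3 ES arrays, was higher than ES in cEpi (2.32), at passage 4 (1.6) and at passage 24 (2.10). Cdc25a, a phosphatase that drives cell cycle entry, was lower in cEpi than in ES (-1.97) and higher at passage 4 (1.02) and passage 24 (1.35) than in cEpi. Cdkn1a, which encodes the cell cycle inhibitor p21, was higher in cEpi than in ES (1.09) and lower than cEpi at passage 4 (-1.01) and passage 24 (-2.27). Cdc25c was lower at passage 24 than in cEpi (-0.22). Eif4b, a translation initiation factor gene, was higher at passage 24 than in ES (1.74). Over all 54 tested genes of the pathway lists, 21 were higher and 25 lower in cEpi than in ES, beside 36.6% and 29.6% of all probes, and these counts were 29 and 13 under median scaling and 30 and 10 without normalisation. At passage 4 against cEpi 27 were higher and 11 lower, beside 28.2% and 28.1%, and under the other scalings 19 and 15, and 15 and 17. At passage 24 against cEpi 24 were higher and 14 lower, beside 33.3% and 32.9%, and under the other scalings 20 and 17, and 17 and 20. Against ES 24 were higher and 10 lower at passage 4, beside 29.3% and 26%, and 30 and 2, and 24 and 2, under the other scalings. At passage 24 against ES 21 were higher and 16 lower, beside 30.6% and 29%, and 27 and 7, and 24 and 7. Between the passages 11 were higher and 15 lower, beside 17.2% and 18.9%, and 8 and 9 under each other scaling.

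Across the 12 arrays the level of Pim1 and that of Pim3 had a Pearson r of 0.85, Stat3 and Socs3 of 0.73, Pim1 and Stat3 of 0.06 and Pim1 and Pim2 of -0.56. These coefficients describe 4 groups of 3 arrays and are set mainly by the differences between groups. The other genes with the pattern most like Pim1 were Dmtn (r = 0.994), Morc1 (0.994), Dppa3 (0.994), Mad2l1 (0.994) and Gsta4 (0.993). For Pim3 they were Bmp4 (0.997), Polr1b (0.991), Nit2 (0.990), Kif20a (0.990) and Tcl1 (0.989). Nup153 (0.977), Cnot11 (0.971), Plekhf2 (0.965), Ltb (0.943) and Fbxo38 (0.941) were most like the brighter Il6st probe, with the same high levels in ES and at passage 4. The closest to Stat3 were Brap (0.992), Ercc2 (0.988), Cwc22 (0.986), 9930104L06Rik (0.985) and Cog4 (0.985). Those closest to Socs3 were Fuom (0.970), Timm8a1 (0.949), A130010J15Rik (0.946), Fnbp1 (0.942) and Xpc (0.941).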

How the data were processed

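Per the labels' protocols, RNA isolated with Trizol was turned into digoxigenin-labelled cRNA. For each array the authors deposited a linear signal intensity, a signal-to-noise score and a quality code per probe, and, per the file headers, quantile-normalised values, which lie on a log2 scale. Score and code stand under each other's headers in the cEpi and rEpiES passage 4 files, so columns were read by content. How the scanner signal was extracted and background-corrected is not given. The deposited value table of the series equals the normalised log2 column (largest difference 0).

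Symbols came from the platform annotation: 14411 of 33012 probes had 1 symbol, 247 several and 18354 none here, and 14402 matched a RefSeq gene table (GRCm38.p6) by gene ID. Probes detected throughout at least 1 group were fitted with limma 3.58.1 in R 4.3.3 (lmFit and eBayes, two-sided, all 12 arrays, no covariate, 8 residual and 1.53 prior degrees of freedom). Calls had a Benjamini-Hochberg adjusted p under 0.05 over the 15235 tested probes. The script was tested on simulated data. The number of arrays limits the precision. For lists, the probe with the highest mean stood for a gene. The text names every member probe, genes of the pathway lists by role, including those with the 2 largest called changes in each direction per list and comparison, and for each member the 5 named probes of other genes with the highest r. Members and lists were chosen with earlier results of these data known. Alternatives changed the scaling, the detection filter, an offset of 50 added to the intensity, array weights, the quality code, the fit and the arrays included. Lifr and protein sequences were not analysed here.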

Additional observations from a re-analysis of the deposited data

Results flagged for a closer look

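The change from cEpi to rEpiES differed between passage 24 and passage 4 for 3 of the 6 member probes, by the test of the difference itself, which is the comparison of the passages. In that comparison 17.2% of all probes were higher and 18.9% lower at passage 24, and group cannot be told apart from file layout. The brighter Il6st probe changed by 0.81 less at passage 24 (-0.81), and the dimmer Il6st probe by 2.01 less (-2.01), the latter against arrays on which it was not detected. The dimmer probe was tested only because it was detected at passage 4, so its difference is no separate support. Stat3 changed by 0.49 more at passage 24. The Stat3 difference lost its call under both other scalings and in 9 of the fits that left out 1 array.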

How the results depend on the processing

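Of the member differences, those of Pim1 and Pim3 from cEpi at both passages, Pim3 from ES at both passages, Stat3 from ES in all 3 groups and Il6st (brighter probe) between the passages kept their direction and their call under every alternative tried, and so did the lower Pim1 in cEpi than in ES. Median scaling and no further normalisation changed the most. In that order, the brighter Il6st probe gave 0.12 and 0.25 for cEpi minus ES, -0.19 and -0.25 for passage 24 minus ES and -0.31 and -0.49 for passage 24 minus cEpi, the last now called, and 0.23 without normalisation for passage 4 minus cEpi. Pim1 gave 0.14 and 0.077 for passage 24 minus ES and 0.30 and 0.23 for passage 4 minus ES. Pim3 gave 0.10 and 0.11 for passage 24 minus passage 4, and -0.55 without normalisation for cEpi minus ES. Socs3 gave 0.55 and 0.67 for cEpi minus ES, 0.23 and 0.039 for passage 24 minus cEpi, and -0.19 without normalisation for passage 4 minus cEpi. Stat3 gave 0.53 and 0.54 between the passages, 0.18 and -0.0195 for passage 4 minus cEpi, and 0.52 without normalisation for passage 24 minus cEpi. The dimmer Il6st probe gave -0.27 and -0.33 for passage 24 minus ES, both groups being below detection, -0.11 with array weights and -0.0024 with the offset. Between the passages 3498 and 2912 probes were called in place of 5505, and 17 pathway genes under each in place of 26. The cause was not tested.

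Without a detection filter the calls were lost for Il6st passage 4 minus ES (0.21), Pim1 passage 24 minus ES (-0.27), Socs3 passage 24 minus cEpi (0.30), Socs3 passage 4 minus ES (0.31), Stat3 between the passages (0.49) and Stat3 passage 4 minus cEpi (0.51), with more probes in the adjustment. With only the 2 compared groups in the fit, Il6st (0.21), Pim1 (-0.27) and Socs3 (0.31) lost these same calls against ES and Socs3 passage 4 minus cEpi (0.21) gained one. With array weights, lowest for ES replicate 3 (0.175), the calls against ES were lost for Il6st at passage 4 (0.19), Pim1 at passage 24 (-0.32) and Socs3 at passage 4 (0.28), and gained for Pim1 between the passages (-0.27) and Socs3 passage 4 minus cEpi (0.22). Detection on all 12 arrays gained Pim1 between the passages (-0.24) and left the dimmer Il6st probe without a value. Same-numbered arrays did not deviate together (correlations from -0.035 to 0.037), so the numbers were not taken to pair samples; a replicate block lost Il6st passage 4 minus ES (0.21, adjusted p = 0.0519) and Pim1 passage 24 minus ES (-0.27, adjusted p = 0.0668).

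Leaving out 1 array at a time was tried for the member probes and for Pim2, counted together. Call and sign stayed the same in 470 fits, which include all those of Pim2. The call was lost in 25 fits and gained in 3, and the sign turned in 6, all of them fits of members. Calls or signs changed within these ranges: Il6st passage 4 minus ES 0.14 to 0.26, the dimmer Il6st probe passage 24 minus ES -0.26 to 0.35, Pim1 passage 24 minus ES -0.35 to -0.21, Pim1 between the passages -0.32 to -0.17, called without passage 24 replicate 3, and Pim1 passage 4 minus ES -0.084 to 0.0099. Pim3 between the passages ranged from -0.068 to 0.030, Socs3 passage 24 minus cEpi from 0.25 to 0.36, Socs3 passage 4 minus ES from 0.22 to 0.40, Socs3 passage 4 minus cEpi from 0.16 to 0.25, Stat3 between the passages from 0.45 to 0.51 and Stat3 passage 4 minus cEpi from 0.47 to 0.53. The signal over background limits the dimmer Il6st probe and the ligands, of which most were too dim to test.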
